A study of Mus musculus with 9 samples.

Results

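DPPA4 is a nuclear protein of pluripotent cells, and the loci described here are those of 8 transcription factor genes that direct cells out of pluripotency: T (brachyury), Nkx2-5, Gata4, Gata6, Sox17, Foxa2, Pax6 and Cdx2. The peaks were chosen by position alone, as all peaks of the 6 deposited DPPA4 lists that overlapped the mm9 span of a gene widened by 20 kb on each side. This gave 115 of the 229345 peaks in the 6 lists. ChIP-seq (sequencing of the DNA recovered with an antibody against DPPA4) had been done on E14, a mouse embryonic stem cell line kept in 2i medium without feeder cells, on P19, an embryonal carcinoma line, and on 3T3, a fibroblast line made to express Dppa4 from an introduced gene. Each line had 2 immunoprecipitated libraries, called replicates 1 and 2. The labels do not say whether these were separate cultures or how the introduced gene was driven, and no 3T3 cells without Dppa4 were analysed here.

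DPPA4 works with its relative DPPA2, and in embryonic stem cells the pair is known for a role at developmental gene promoters that carry both activating and repressive histone marks. T, Nkx2-5 and Gata4 are genes of mesoderm and heart, Gata6, Sox17 and Foxa2 of endoderm, Pax6 of the neural ectoderm and eye, and Cdx2 of the trophectoderm and the hindgut. Such genes are mostly held silent in undifferentiated stem cells and are switched on as a lineage forms. These peak lists measure where DPPA4 was found, not whether the genes were transcribed.

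The starts of T, Nkx2-5 and Cdx2 carried reproducible peaks in 1 or more lines, and that of Pax6 is shown beside them because no line had such a peak there. Foxa2 had none within 2 kb of the start end of its span either and is not printed. RefSeq gave 3 starts for Foxa2 and 2 for Pax6, and the first Pax6 start is used. These starts were not placed in mm9, so whether a peak lies at a later start of Foxa2 was not determined. The 250 bases before the RefSeq starts of T, Nkx2-5, Cdx2 and Pax6 are printed 5′ to 3′ on the strand of the gene, with CG dinucleotides in capitals. They come from RefSeq on GRCm38.p6, an assembly other than the mm9 of the peaks, so whether a peak covers exactly these bases was not determined.
T, chr17:8434173-8434422, plus strand: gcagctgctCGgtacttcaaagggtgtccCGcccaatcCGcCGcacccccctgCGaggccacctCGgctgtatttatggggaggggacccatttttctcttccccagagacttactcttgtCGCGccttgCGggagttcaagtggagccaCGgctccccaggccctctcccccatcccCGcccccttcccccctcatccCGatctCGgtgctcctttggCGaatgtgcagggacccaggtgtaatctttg
Nkx2-5, chr17:26841566-26841815, minus strand: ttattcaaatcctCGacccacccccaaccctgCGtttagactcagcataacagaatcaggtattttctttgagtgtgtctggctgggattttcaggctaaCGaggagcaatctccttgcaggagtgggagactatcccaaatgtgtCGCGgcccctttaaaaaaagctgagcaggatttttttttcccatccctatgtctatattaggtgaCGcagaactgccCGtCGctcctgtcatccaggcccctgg
Cdx2, chr5:147307250-147307499, minus strand: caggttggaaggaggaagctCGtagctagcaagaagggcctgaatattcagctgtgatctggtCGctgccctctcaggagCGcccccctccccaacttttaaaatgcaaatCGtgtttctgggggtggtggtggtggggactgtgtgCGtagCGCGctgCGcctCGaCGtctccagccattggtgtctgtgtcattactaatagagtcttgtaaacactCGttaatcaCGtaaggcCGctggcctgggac
Pax6, chr2:105668646-105668895, plus strand: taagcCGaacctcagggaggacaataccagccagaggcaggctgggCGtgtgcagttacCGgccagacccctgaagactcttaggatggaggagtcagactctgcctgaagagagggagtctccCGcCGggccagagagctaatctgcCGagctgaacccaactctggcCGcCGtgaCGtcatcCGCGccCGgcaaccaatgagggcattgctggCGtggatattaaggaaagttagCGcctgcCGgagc

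The T sequence held 14 CG dinucleotides and 62.8% G or C, that of Nkx2-5 8 and 49.2%, that of Cdx2 13 and 55.2%, and that of Pax6 15 and 60.8%. Over 32841 RefSeq promoters of this length the medians were 6 and 52.4%. At least 14 CG dinucleotides were found in 29.4% of those promoters, at least 8 in 43.0%, at least 13 in 31.5% and at least 15 in 27.3%. The letters CCAAT, sought on both strands, occurred once in T, Cdx2 and Pax6 and not in Nkx2-5, against 33.9% of all promoters with a match. The letters TATAAA, on either strand, were in none of the 4 sequences and in 12.4% of all promoters. Of the sequences not printed, the second of Pax6 held 15 CG dinucleotides and 47.6% G or C, without CCAAT or TATAAA. Those of Foxa2 held 6, 20 and 13 CG dinucleotides. The first of them had a CCAAT match and the third a TATAAA match.

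Every library of E14 and P19 had at least 1 peak at each of the 8 loci. E14 replicates 1 and 2 had 24 and 20 peaks, P19 replicates 16 and 24, and 3T3 replicates 15 and 16. The mean was 22 ± 2.83 peaks for E14 (SD, n = 2), 20 ± 5.66 for P19 and 15.5 ± 0.707 for 3T3. Both E14 libraries lay above both 3T3 libraries, whereas P19 replicate 1 was level with 3T3 replicate 2. The 8 windows add up to 464 kb. Peaks were 5.43 and 5.10 times as dense there as over the whole list in the 3T3 libraries, against 2.18 and 2.58 times in E14 and 2.24 and 2.62 times in P19. The whole list includes stretches with few genes, and no gene map of mm9 was used, so these ratios do not compare the loci with other genes.

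**Figure D1:**
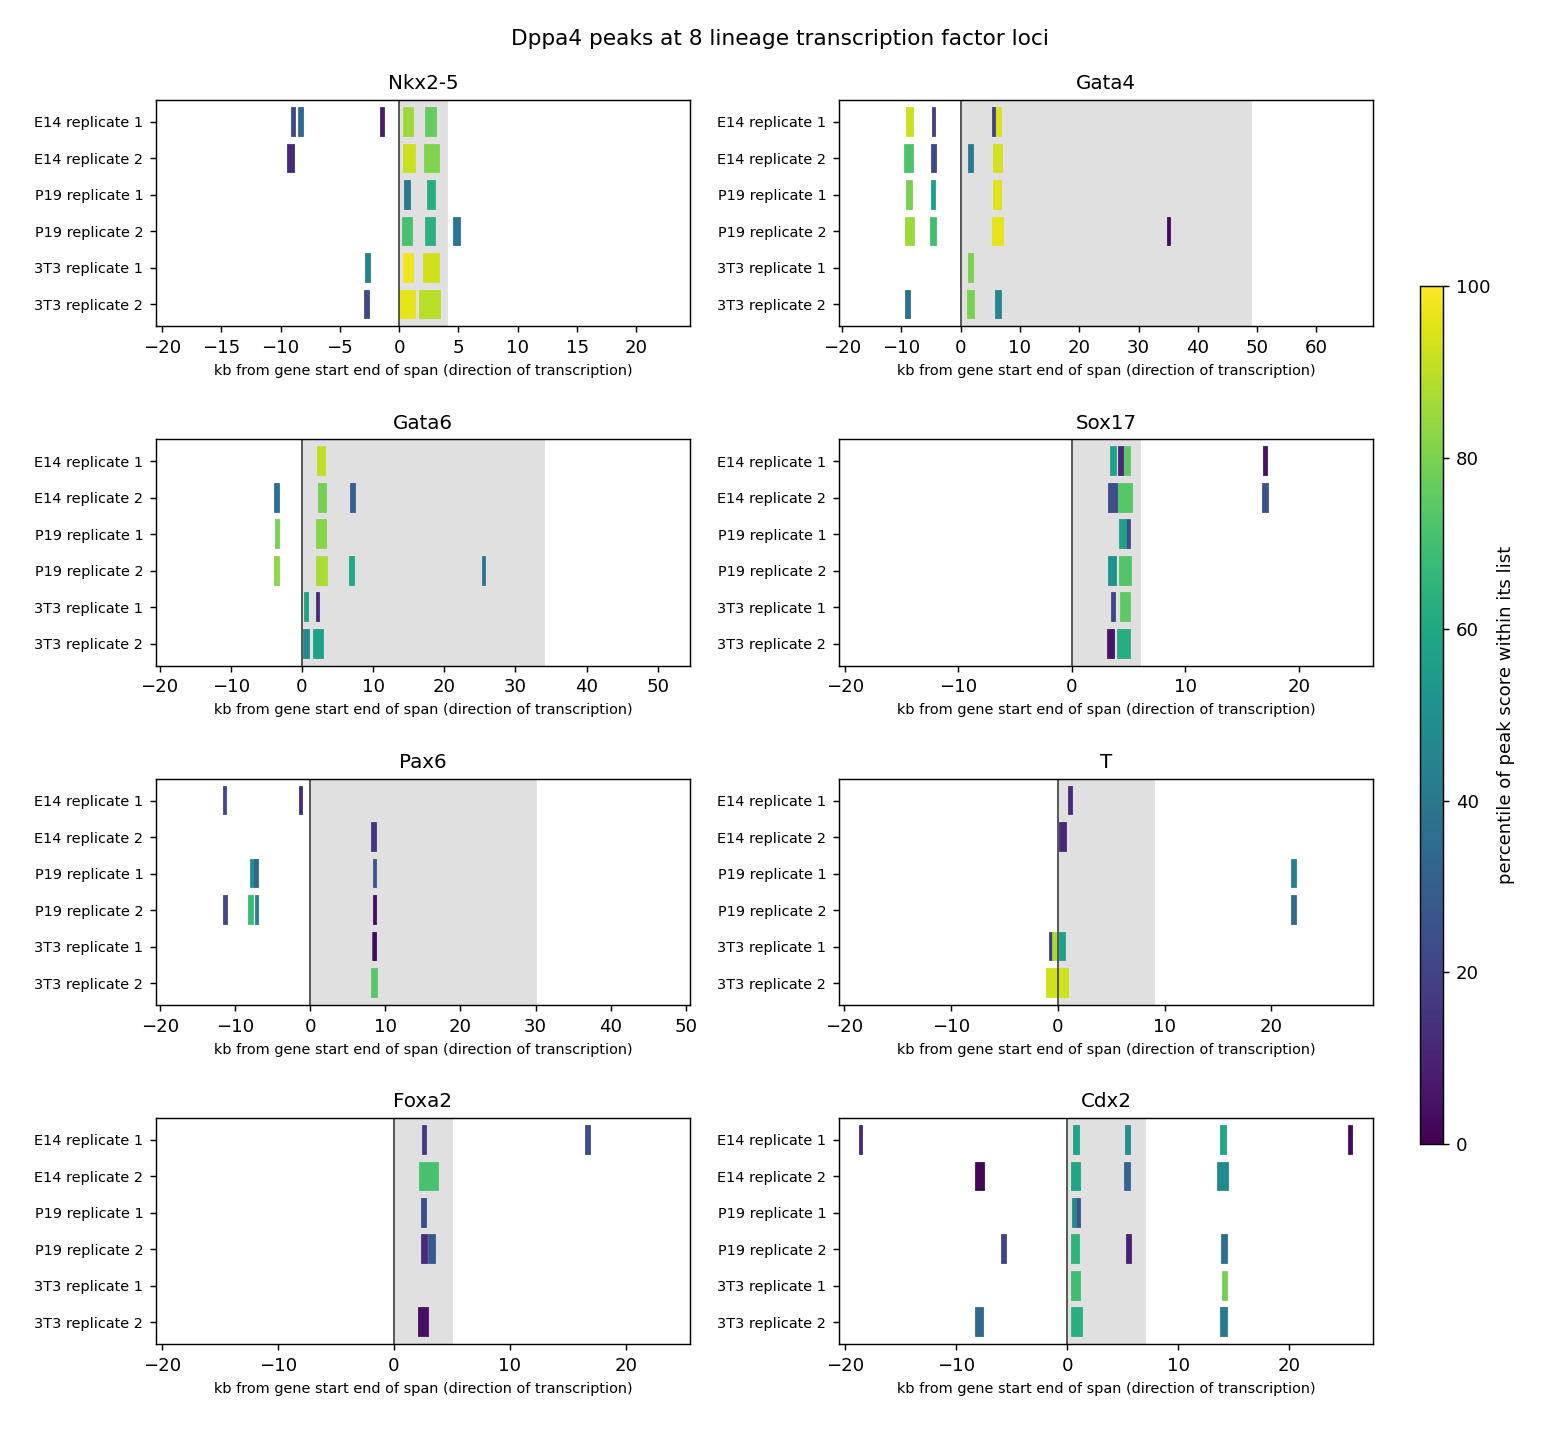
Positions of all peaks at the 8 loci, 1 panel per gene, with distance from the start end of the gene span on the horizontal axis (kb, in the direction of transcription), 1 line of bars per library and the percentile of the peak score as colour. Grey marks the gene span. At T the bright bars lie at the start and in 3T3 alone, whereas at Gata4 the bright bars of E14 and P19 lie away from the start.

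**Figure D2:**
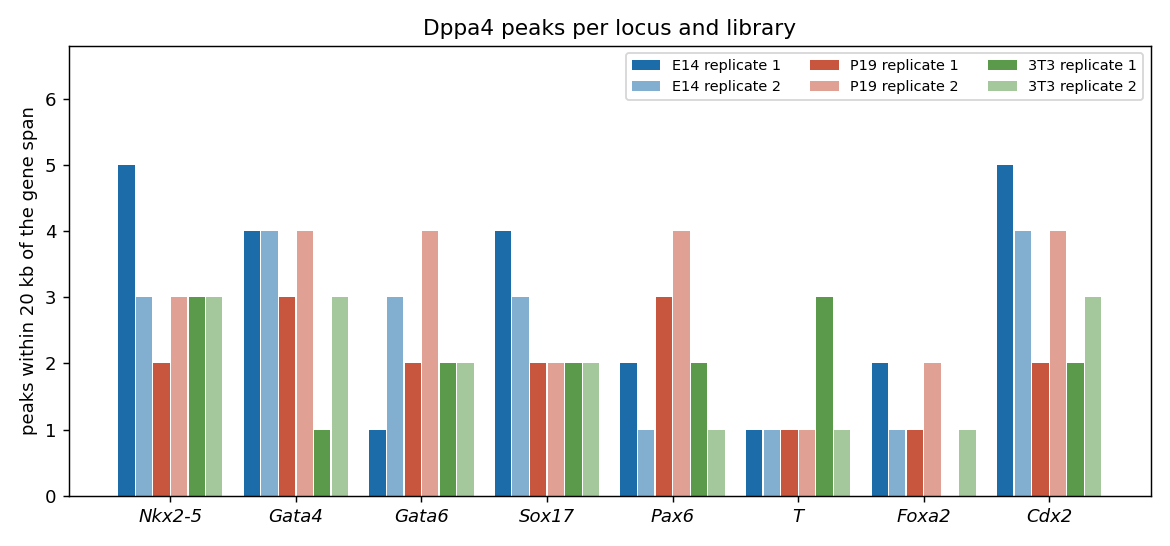
Number of peaks within 20 kb of each gene span (vertical axis) for the 8 genes and 6 libraries. Counts run from 0, for Foxa2 in 3T3 replicate 1, to 5, for Nkx2-5 and Cdx2 in E14 replicate 1.

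At equal list length the order of the lines turned. The 3T3 lists are the shortest of the series, and the mean count at the loci in E14 was 1.42 times that in 3T3, against 3.19 times over the whole lists. The P19 to 3T3 ratio was 1.29 at the loci and 2.76 over the lists. With each list limited to its 15462 best-scoring peaks, 3T3 replicates had 15 and 14 peaks at the loci, E14 replicates 6 and 7, and P19 replicates 5 and 6. The 3T3 libraries then lay above all 4 others without overlap, and the ratios to 3T3 were 0.448 for E14 and 0.379 for P19. With the best-scoring 50% of each list the E14 counts were 9 and 8, those of P19 8 and 12 and those of 3T3 9 and 8. Within the gene spans alone the ratios were 1.04 and 1.0, and within 50 kb of the spans 2.0 and 1.94. Lines were not tested against each other, since an exact permutation test of 2 libraries with 2 others has a smallest two-sided p of 0.333.

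**Figure D3:**
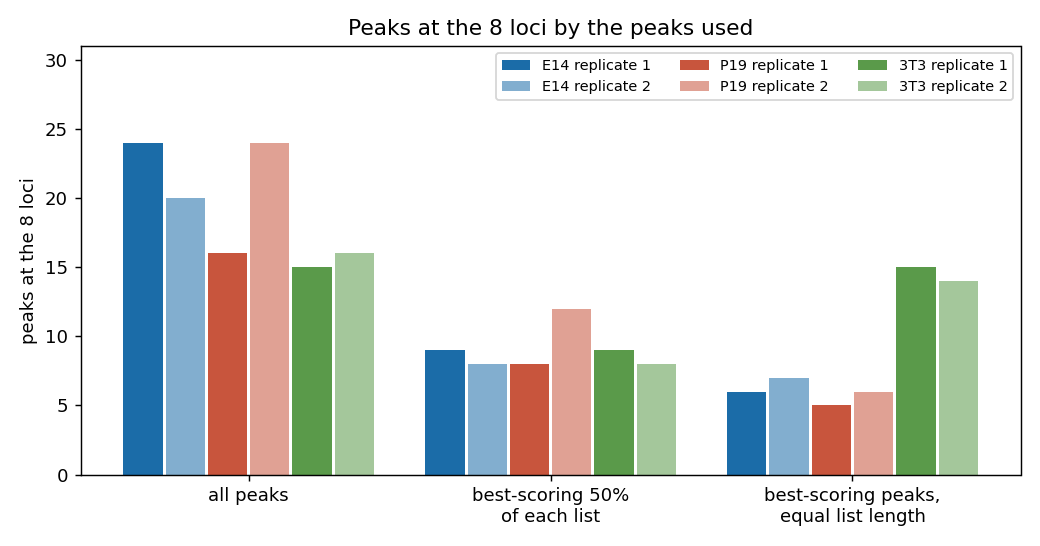
Peaks at the 8 loci (vertical axis) in each of the 6 libraries with all peaks, with the best-scoring 50% of each list and with 15462 peaks in every list. On the left the 3T3 bars stand at 15 and 16 peaks, the latter level with P19 replicate 1, and on the right 3T3 has the highest bars, 15 and 14.

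Peaks were called reproducible where those of both libraries of a line overlapped by at least 1 bp, and their union was taken as 1 region. E14 had 14 such regions at the loci, P19 14 and 3T3 12. They are 0.0375%, 0.0425% and 0.107% of all reproducible regions of these lines. All 8 loci had a region in P19, 7 in 3T3 (not Foxa2) and 6 in E14 (not T or Pax6). Over the genome, cut into tiles of 58 kb, the mean width of the windows, 47.2% of tiles held an E14 region, 42.7% a P19 region and 18.5% a 3T3 region. The counts rest on both libraries of a line: the single library left without E14 replicate 2 had 24 peaks, and that left without P19 replicate 1 also 24. With 15462 peaks in every list, 3T3 had 11 regions at 7 loci, while E14 had 6 at 4 loci and P19 4 at 2 loci.

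Merged over the lines, the regions made 23 sites. Of these, 5 were reproducible in all 3 lines, or 21.7%, against 15.4% of all merged regions. They were a pair in Nkx2-5 and 1 each in Gata6, Sox17 and Cdx2. E14 and P19 without 3T3 held 4 sites, 3 of them at Gata4 and 1 at Foxa2, or 17.4% against 40.2% of all merged regions. 3T3 alone held 4, at Nkx2-5, Gata4, Gata6 and T, or 17.4% against 4.37%. E14 alone held 3 sites (22.0% of all merged regions were of this kind) and P19 alone 4 (13.7%). E14 with 3T3 held 2 (3.27%), and P19 with 3T3 held 1 (1.10%). With numbers this small these shares are descriptions.

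P19 regions were met by 9 of the 14 in E14, or 64.3% (Wilson 95% interval 38.8 to 83.7), against 68.8% of all E14 regions. A 3T3 region was overlapped by 7 of them, or 50% (26.8 to 73.2), against 23.6% of all. Of the 14 P19 regions, 9 overlapped an E14 region, against 79.4% of all, and 6 a 3T3 region, or 42.9% (21.4 to 67.4), against 24.0% of all. Of the 12 3T3 regions, 7 overlapped an E14 region, against 77.6% of all, and 6 a P19 region, or 50% (25.4 to 74.6), against 68.3% of all. The share of E14 regions held by 3T3 moved with the libraries and the window. It was 33.3% without E14 replicate 2, 33.3% within 50 kb of the spans and 71.4% without 3T3 replicate 1. Where a replicate is left out, all peaks of the other library of that line stand in for its reproducible regions, so the measure also changes. The intervals cover counting error alone and treat regions as independent, although several share a locus.

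**Figure D4:**
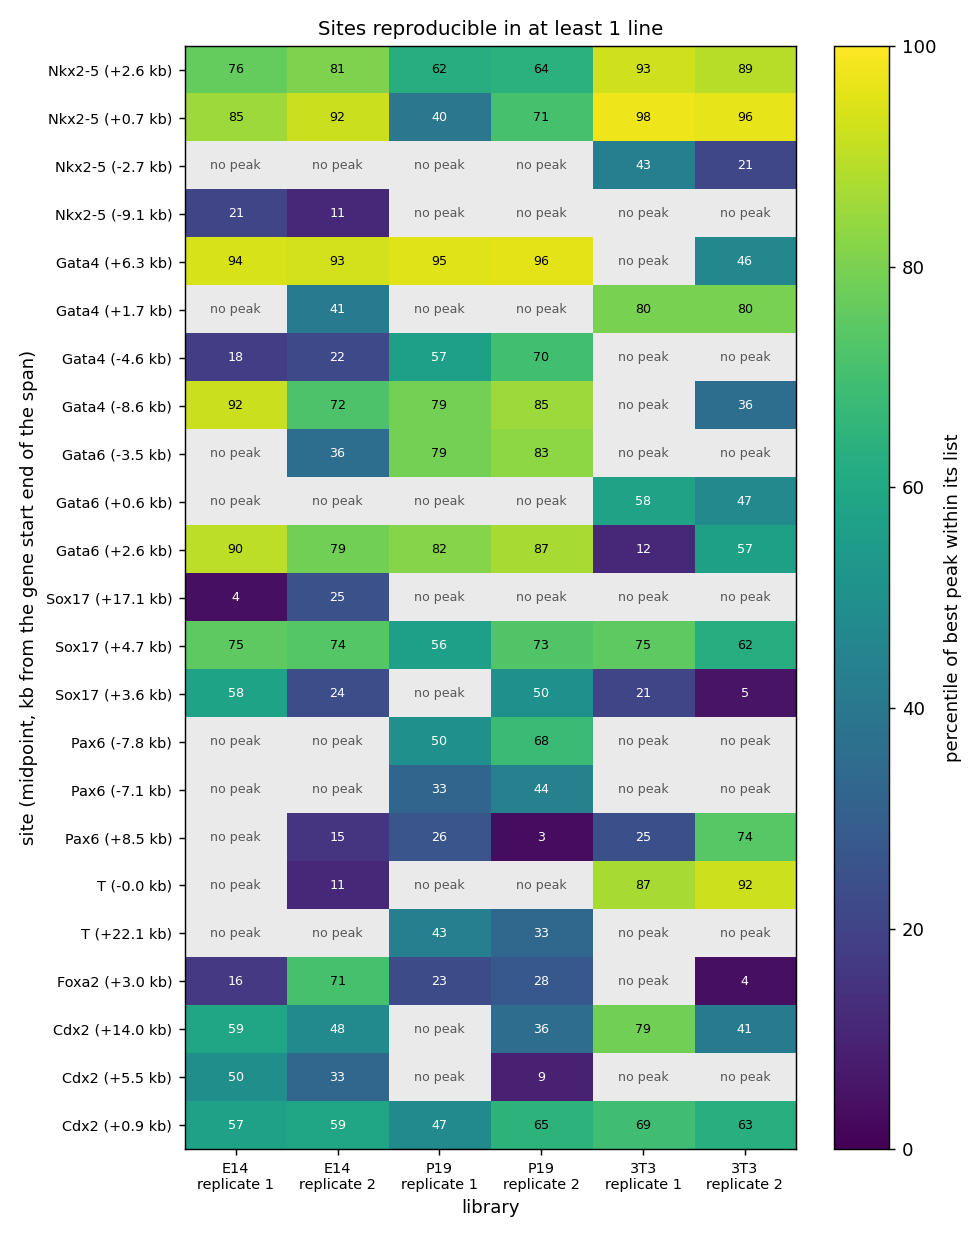
The 23 sites that were reproducible in at least 1 line (one per line of the grid, labelled by the midpoint in kb from the start end of the gene span) in the 6 libraries, coloured and numbered by the percentile of the best peak within its list. "No peak" marks a library without a peak there. The site at the start of T stands at 87 and 92 in 3T3 and at 11 in the single E14 library that has it.

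The strength of a peak is given below as the score of the authors' peak caller and as its percentile in its own list, where 100 is the strongest. Scores cannot be compared between lists, because the scale is not named and depth is unknown, and percentiles from lists of different length show a rank within a list, not an amount. Distances are in kb from the start end of the gene span, positive into the gene, and since the spans are rounded to 1 kb they are no finer than that.

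T (mm9 chromosome 17, 8627 to 8636 kb), the founding T-box gene and a marker of early mesoderm, had its main site in the fibroblasts with ectopic Dppa4. The site at chr17:8626020-8627904 (mm9) spanned -0.981 to 0.904 kb, across the gene start. Scores were 323 in 3T3 replicate 1 and 789 in 3T3 replicate 2, the percentiles 87.0 and 92.5. The extent is that of the single peak of 3T3 replicate 2. Replicate 1 had 3 separate peaks within it, at percentiles of 16.8, 87.0 and 57.6, and the value given is that of the best. E14 replicate 2 had a peak there that scored 58.2, at percentile 11.1, and E14 replicate 1 and both P19 libraries had none. E14 replicate 1 had a weak peak just beside it, from 1.08 to 1.32 kb, with a score of 56.9. Both 3T3 libraries thus ranked the start of T among their stronger peaks, and the 4 libraries of the pluripotent lines had either no peak or one near the lowest scores of their lists. The only P19 region of the locus lay beyond the far end of the gene, from 21.9 to 22.3 kb, at percentiles 43.0 and 33.3. It is lost with windows of 10 kb or the span alone. Within 50 kb of the span, E14 had 5 reproducible regions in place of 0 and P19 had 3, while 3T3 still had 1, so the absence of E14 regions holds for the nearer windows.

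Nkx2-5 (chromosome 17, 26975 to 26979 kb), a homeobox gene of the early heart, had 2 sites with a peak in all 6 libraries. The site nearest the start, chr17:26977628-26978956, lay at 0.044 to 1.37 kb. Its scores were 513 and 690 in the E14 libraries, 99.5 and 290 in those of P19, and 754 and 1107 in those of 3T3. The E14 percentiles were 85.3 and 92.2, the P19 ones 39.8 and 70.9, and the 3T3 ones 97.6 and 96.2, so by rank within their own lists the libraries stood in the order 3T3, E14, P19 without overlap. The other site, chr17:26975591-26977230, reached from 1.77 to 3.41 kb. There E14 had percentiles of 76.3 and 80.7, P19 of 62.4 and 64.0 and 3T3 of 92.8 and 89.2, again in that order without overlap. In both 3T3 libraries the site nearest the start had the highest percentile of any peak at the 8 loci. Of tiles as wide as the Nkx2-5 window, 0.838% held at least as many reproducible regions in 3T3, 5.29% in E14 and 10.9% in P19. The 3T3 share was the smallest of any locus and line. At the other loci with a region, such shares ran from 3.17% (Sox17) to 25.1% (Gata4) in 3T3. They ran from 5.66% (Sox17) to 54.6% (Gata6) in E14 and from 8.54% (Pax6) to 38.2% (T) in P19. Weaker sites upstream were held by 3T3 alone, at -2.92 to -2.45 kb, and by E14 alone, at -9.36 to -8.79 kb, with percentiles from 11.4 to 43.3.

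Gata4 (chromosome 14, 63817 to 63866 kb), a zinc finger gene of heart and endoderm, carried the strongest peaks of the 8 loci in E14 and P19. They lay inside the gene at chr14:63858808-63860546, 5.45 to 7.19 kb from the start end. Scores were 939 and 754 in E14 and 2417 and 2987 in P19, with percentiles of 94.1 and 93.2 in E14 and 95.1 and 95.7 in P19. In 3T3 the first replicate had no peak there and the second had one at percentile 46.4. A further site upstream, chr14:63873933-63875312, had percentiles of 92.0 and 72.1 in E14 and 79.0 and 85.5 in P19. 3T3 replicate 2 had a peak at percentile 36.1 there, and replicate 1 had none. The third site of E14 and P19, at -4.96 to -4.19 kb, was weaker, with percentiles of 18.3 and 22.1 in E14 and 56.5 and 69.6 in P19, and no 3T3 library had a peak in it.

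The 3T3 region of Gata4 lay elsewhere, at chr14:63863736-63864812, 1.19 to 2.27 kb from the start end. Its percentiles were 79.7 and 80.0 in the 3T3 libraries. E14 replicate 2 had a peak at percentile 40.7 in it, and the other 3 libraries had none. Within 1 locus, E14 and P19 thus had their strong peaks at sites where 3T3 had a lower-ranked peak in replicate 2 and none in replicate 1. 3T3 had its strong peak where P19 had none. The RefSeq span of Gata4 in GRCm38 is longer than the mm9 span used, 72.8 against 49 kb, and that of Nkx2-5 is 6.33 against 4 kb, so distances from the start end depend on the gene model.

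Gata6 (chromosome 18, 11052 to 11086 kb), a Gata gene of primitive endoderm, had neighbouring sites with different ranks in the lines. The site at chr18:11053719-11055490, from 1.72 to 3.49 kb, had a peak in all 6 libraries. It scored 687 and 324 in the E14 libraries, at percentiles of 90.0 and 78.7. The P19 libraries had scores of 475 and 786, at percentiles of 82.0 and 87.0, and the 3T3 libraries 55.3 and 190, at 11.6 and 56.8. All 4 libraries of the pluripotent lines thus ranked it above both 3T3 libraries, which differed widely from each other. Nearer the start, at 0.235 to 1.0 kb, only the 3T3 libraries had a peak, with scores of 123 and 142 and percentiles of 57.6 and 47.2. P19 held a site upstream, at -3.83 to -3.18 kb, with percentiles of 79.0 and 83.1, where E14 replicate 2 had a peak at percentile 36.2 and E14 replicate 1 none.

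Sox17 (chromosome 1, 4481 to 4487 kb), a gene of definitive endoderm and of vessels, had no peak within 3 kb of the start end of its span. Its main site, chr1:4481704-4482954, lay in the far part of the gene, from 4.05 to 5.30 kb, and had a peak in all 6 libraries. Percentiles were 75.1 and 73.8 for E14, 56.3 and 73.0 for P19 and 75.2 and 62.4 for 3T3. Both E14 libraries lay above both P19 libraries, narrowly at 73.8 against 73.0, and the 3T3 range overlapped those of both lines. The adjoining site, from 3.20 to 3.98 kb, had a peak in 5 libraries, all but P19 replicate 1, at percentiles from 5.29 in 3T3 replicate 2 to 57.8 in E14 replicate 1. A site of E14 alone, at 16.8 to 17.3 kb, scored only 52.2 and 73.4.

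Foxa2 (chromosome 2, 147868 to 147873 kb), a forkhead gene of endoderm and notochord, had the fewest peaks of the 8 genes, 7 over the 6 libraries. Its single reproducible site, chr2:147869222-147870851, lay at 2.15 to 3.78 kb from the start end of the span. How far it lies from the later RefSeq starts of the gene was not determined. Scores were 60.3 and 244 in E14, 70.3 and 79.2 in P19 and 53.1 in 3T3 replicate 2, and 3T3 replicate 1 had no peak. Percentiles were 16.4 and 71.1 in E14, 23.3 and 27.6 in P19 and 3.92 in 3T3 replicate 2. Apart from E14 replicate 2 these were weak peaks in every list.

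Pax6 (chromosome 2, 105508 to 105538 kb), a paired-box gene of the eye and brain, had no reproducible E14 region. E14 replicate 1 alone had a peak near the first start, at -1.36 to -1.10 kb, and it scored 57.2. P19 held 2 neighbouring regions upstream, at -8.09 to -7.47 kb with percentiles of 50.3 and 68.3 and at -7.32 to -6.91 kb with 32.6 and 43.7, and no E14 or 3T3 library had a peak in either. Inside the gene, the site at chr2:105516174-105516922 (8.17 to 8.92 kb) had a peak in 5 libraries, all but E14 replicate 1. Percentiles there were 15.4 in E14 replicate 2, 26.5 and 3.18 in P19, and 24.6 and 74.1 in 3T3. The 3T3 value rests on replicate 2, and replicate 1 was within the P19 range.

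Cdx2 (chromosome 5, 148112 to 148119 kb), a caudal-type homeobox gene of trophectoderm and intestine, had the most peaks, 20 over the 6 libraries. Its start site had a peak in all 6 libraries. The site chr5:148117623-148118596 lay at 0.404 to 1.38 kb. It scored 152 and 165 in the E14 libraries, 119 and 225 in those of P19 and 169 and 235 in those of 3T3. Percentiles were 57.1 and 59.1 for E14, 47.3 and 64.7 for P19 and 69.2 and 63.0 for 3T3, so every library ranked it near the middle of its list or above. Both 3T3 libraries lay above both E14 libraries, and the P19 range overlapped those of both lines. A site beyond the far end of the gene, at 13.6 to 14.5 kb, was reproducible in E14 and 3T3, with percentiles of 59.1 and 47.7 and of 78.6 and 40.9. P19 replicate 2 had a peak at percentile 35.6 there and P19 replicate 1 none. E14 alone held a site inside the gene, at 5.18 to 5.73 kb, with percentiles of 49.7 and 32.9, and P19 replicate 2 had a peak in it at percentile 9.25.

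Across the 8 genes, 7 of the 12 3T3 regions reached to within 2 kb of the start end of the span, at 5 genes (Nkx2-5, Gata4, Gata6, T and Cdx2). For E14 and for P19 it was 2 of 14, at Nkx2-5 and Cdx2. Later RefSeq starts inside a span, as for Foxa2 and Pax6, were not considered in these counts. Counted by sites merged over the lines, 7 sites reached to within 2 kb, of which 3T3 held 7 and E14 and P19 4 each. The second Nkx2-5 site and the shared Gata6 site reach that zone only through the peaks of 3T3 replicate 2, since those of replicate 1 begin at 2.06 and 2.18 kb. Within 1 kb the counts were 4, 2 and 2, and within 5 kb 10, 8 and 8, so the contrast depends on the distance used, and these distances were chosen after the values were seen. Peak width enters such counts, and replicate 2 of 3T3 had a median width of 856 bp at the loci (872 bp in its list) against 420 bp in replicate 1 and 324 and 718 bp in the E14 libraries. The part of width in the contrast was not tested.

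By median rank, the peaks at the loci stood below the middle of the list in E14, near it in P19 and somewhat above it in 3T3. The median percentile was 21.8 and 38.5 in the E14 libraries, 48.8 and 46.9 in P19 and 57.6 and 52.0 in 3T3, where a whole list has a median of 50 by construction. Peaks scoring under 100 made up 58.3% and 50% in E14, 37.5% in each P19 library and 40% and 25% in 3T3. The same shares over whole lists were 42.1% and 39.9%, 40.2% and 38.0%, and 49.0% and 34.7%. Weak peaks were thus a larger share at the loci than over the list in both E14 libraries, a smaller one in both 3T3 libraries and nearly level in P19. Among reproducible regions the medians at the loci were 58.5 and 65.1 in E14 (68.9 and 56.7 over all E14 regions), 53.3 and 69.0 in P19 (57.9 and 67.5) and 72.2 and 62.7 in 3T3 (61.1 and 67.6). In each of the 3 lines the direction of the difference from all regions changed between the replicates.

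Counting every peak, with or without a partner in the other replicate, the loci held 37 sites. Of these, 5 had a peak in all 6 libraries, or 13.5%, against 9.19% of all sites of the series. Another 11 had a peak in 1 library only, or 29.7%, against 34.0%. The 5 sites in all libraries lay inside the spans of Nkx2-5, Gata6, Sox17 and Cdx2, and none was outside a gene span. Of the 8 genes, 7 (all but Sox17) have another RefSeq gene within 20 kb in GRCm38, so a peak in a flank is not necessarily a peak of the gene named here.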

How the data were processed

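Peak lists of 6 DPPA4 ChIP-seq libraries were used, and the 3 input libraries were not. Per the submitters' processing notes, the tools included BWA 0.7.13-r1126 and SAMtools 1.3, and the build was mm9. The deposited value of each peak is a score of the authors' peak caller, whose peak names begin with MACS. Which version, threshold or control it used is not given in the sources used. Read depth is unknown, and all lists start at a score of 50. Libraries were grouped by cell line and replicate number in their titles, and p-values are not given.

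Gene spans came with the choice of loci, in mm9 and rounded to 1 kb. Orientation was that of the RefSeq promoter table (GRCm38.p6) for 5 genes and textbook knowledge for Gata4, Gata6 and Sox17. Scores were turned into percentiles within a list. Tiles ran along each autosome and the X chromosome between the outermost peaks. The overlap code was tested on simulated intervals. All 8 genes were named, and of the sites the best-ranked one of each locus, those at a gene start and those in all 3 lines. Further sites were added after their values were seen. The loci and gene list were chosen with earlier results of these data known. Alternatives were other distances, shorter lists, an overlap of 50%, leaving out each library and a replicate block. Scripts ran in Python 3.11.15 with pandas 2.3.3, NumPy 2.4.6 and SciPy 1.17.1.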

Additional observations from a re-analysis of the deposited data

How the results depend on the processing

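No test was made between lines, so the alternatives move values only. With the best-scoring 50% of each list, E14 had 7 reproducible regions at the loci, P19 8 (at 5 loci) and 3T3 6, and the E14 to 3T3 ratio of peaks was 1.0. With 15462 peaks in every list there were 6 regions in E14 and 4 in P19, the latter at 2 loci, and the ratios to 3T3 were 0.448 (E14) and 0.379 (P19). Fewer peaks entered in both cases. Gene spans alone gave 9 regions in E14 and 8 in P19 and an E14 to 3T3 ratio of 1.04. Within 10 kb of the spans that ratio was 1.23. Within 50 kb, P19 had 24 regions, and the ratios were 2.0 (E14) and 1.94 (P19). Leaving out each library in turn gave 14 to 24 regions in E14 (24 without E14 replicate 2), 14 to 24 in P19 (24 without P19 replicate 1), and 45.8% to 85.7% of E14 regions held by P19 (85.7% without P19 replicate 1). With a replicate block (the geometric mean of the ratios between equally numbered libraries), the ratios to 3T3 were 1.41 for E14 and 1.26 for P19. Nothing in the labels says that equal numbers share a culture or day. In all, 100 of 120 such recalculations stayed within 1.5 times (counts), the counting interval (shares) or 1 SD over library pairs (ratios). Many of these left out a library of a line that the value does not use. Such values stay the same by construction, so the tally overstates stability. An overlap of 50% of the shorter peak left the region counts at 14, 14 and 12. The distances of 1 and 5 kb from the gene start were added after the data were seen. Unknown depth limits every statement that a peak is missing.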
